A study of Mus musculus with 20 samples.

Results

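The cytosolic ribosomal protein genes were examined in single 8-cell (8C) mouse embryos that lacked or retained maternal Ehmt2, the gene for the H3K9 methyltransferase G9a. Genes were taken by symbol: every Rpl or Rps gene of the cytosolic ribosome and its paralogs, with pseudogenes named -ps or Gm left out. The family itself was chosen with earlier results of these data known. The symbols gave 86 of the 34937 genes counted, of which 46 encode proteins of the large subunit, 31 encode proteins of the small subunit and 9 are paralogs (Rpl3l, Rpl6l, Rpl7l1, Rpl10l, Rpl22l1, Rpl36al, Rpl39l, Rps27l and Rps4l). The 77 genes that are not paralogs are called parents below. Fau and Rack1, whose products are also part of the ribosome, have other symbols and were not included. All embryos were collected at E2.5, looked normal and came from a mixed genetic background. The 9 control embryos (Ehmt2Cntr) had Ehmt2F/+ Zp3-Cre mothers and the 10 mutants (Ehmt2Mat) had Ehmt2F/- Zp3-Cre mothers, where Zp3-Cre deletes the floxed allele in the growing oocyte, and the fathers were Ehmt2+/-. The embryo's own genotype was +/+ in 6 and +/- in 3 controls, and +/- in 5 and -/- in 5 mutants, so maternal and zygotic genotype were not balanced. Control embryo 4 was not analysed here. The labels do not say which embryos share a mother or a litter, so p-values measure the spread between embryos.

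Total counts per embryo ranged from 8231646 to 30602434, so that 3 counts equalled 0.0911 to 0.364 CPM (counts relative to the TMM-scaled library size). Ehmt2 itself, counted over all of its exons, was at 66.6 to 253 CPM in controls (median 133) and at 58.7 to 159 CPM in mutants (median 94.9), and it was not called (log2 fold change -0.47, SE 0.24, edgeR adjusted p = 0.233). This count does not separate the floxed exons or the transcripts of the embryo's own copy. All 10 blastomere genes taken as markers of the 8C stage were detected, with summed levels of 3030 to 5210 CPM in controls and 3430 to 4900 CPM in mutants. Dppa3 made up the largest part of these sums, and single markers differed: Tead4 and Tfap2c were called higher (log2 fold changes of 0.90 and 0.75) and Gata6, Sall4 and Klf5 lower (-1.85, -1.07 and -1.49). Of 12 cumulus and granulosa cell genes, 3 were above a mean of 1 CPM and 5 (Amh, Foxl2, Fshr, Has2 and Ptx3) had no count, and the summed level was 260 to 889 CPM in controls and 224 to 518 CPM in mutants, nearly all of it from Nr5a2, which blastomeres also express (mean 481 CPM in controls and 375 CPM in mutants). The summed level of 6 blood cell genes was at most 9.33 CPM in any embryo.

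Each ribosome holds a small subunit that reads the mRNA and a large subunit that joins amino acids, and nearly every ribosomal protein is needed in equal numbers. They are made in the cytoplasm, carried into the nucleolus, often by dedicated chaperones, and put onto rRNA by assembly factors that leave before the subunit works. Their mRNAs usually begin with a run of C and T letters, the TOP motif, through which mTOR signalling sets their translation. Several parents have paralogs elsewhere in the genome, some of which are retrogenes that are active in testis or muscle. In the mouse, ribosome production restarts during cleavage, once the embryo's own genome is active.

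Paralog and parent differed in sequence. The first 30 coding bases are shown for pairs whose ratio changed (described below) and whose coding sequences have the same length. This leaves out Rpl3l and Rpl3, whose ratio also changed. Letters that differ inside a pair are in capitals (GENCODE M21 transcripts on GRCm38, coding bases 1 to 30).
Rpl10l: atgggTcgTcgTccGgcTcgCtgttaccgg
Rpl10: atgggCcgCcgCccCgcCcgGtgttaccgg
Rpl36al: atggtCaacgtAccAaaaacccgAAggacT
Rpl36a: atggtGaacgtGccTaaaacccgCCggacA
Rpl39l: atgGcttctcacaagacCttcAgGatcaag
Rpl39: atgTcttctcacaagacTttcCgAatcaag
Over the whole coding sequence, Rpl10l and Rpl10 differed at 98 of 645 bases, Rpl36al and Rpl36a at 39 of 321 bases, and Rpl39l and Rpl39 at 23 of 156 bases. None of the 8 pairs had an identical stretch of 50 bases, the read length, in common between the transcripts of paralog and parent. Only 1 transcript per gene was compared, and stretches with a mismatch were not searched. Rpl10l, Rpl36al and Rps4l are single-exon genes, whereas Rpl10 has 6 exons and Rpl36a has 5.

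Ribosomal protein genes were more often higher than lower in Ehmt2Mat embryos, but most of them were not called. Of the 86 genes, 85 passed the filter on low counts, and 17 of these were called higher and 1, Rpl13, was called lower (edgeR quasi-likelihood test, adjusted p under 0.05 over 11754 genes). Of all tested genes 9.35% were called, 4.37% higher and 4.98% lower, so higher calls were more frequent among the ribosomal protein genes (17 of 85). The median log2 fold change was 0.43 over the 85 genes and -0.04 over all tested genes, and 63 of the 85 values were above 0, which held for 47.6% of all tested genes. An unadjusted p under 0.05 was found for 41 of the 85 genes, against 23.3% of all tested genes. No ribosomal protein gene had groups that did not overlap, which was the case for 0.34% of all tested genes in the higher direction and for 0.179% in the lower direction. In 16 ribosomal protein genes all 10 mutants were above the control median, which held for 8.32% of all tested genes. Among small-subunit parents 7 of 31 were called higher (median 0.50), among large-subunit parents 7 of 46 were called higher and 1 lower (median 0.25), and among the 8 tested paralogs 3 were called higher (median 0.62). The difference between the subunits was not tested. The 18 calls are not firm as a number: they were 11 without control embryo 8, 11 without mutant embryo 9, and 30 with DESeq2 (13.6% of all tested genes were called with that tool). For the fits without control embryo 8 or mutant embryo 9, the share of all tested genes called is not reported here.

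**Figure D1:**
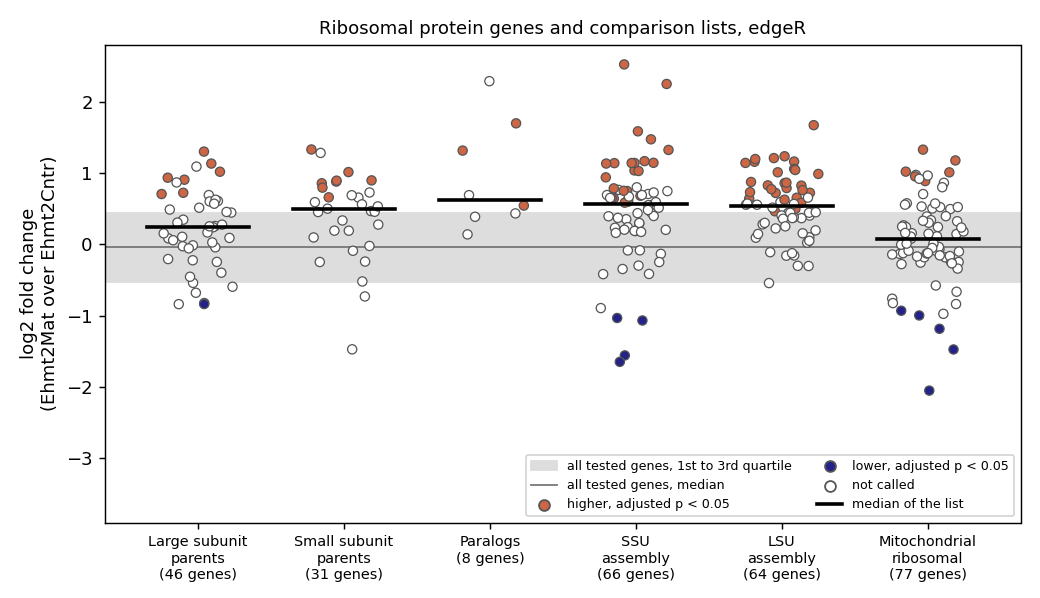
Log2 fold change of Ehmt2Mat over Ehmt2Cntr embryos (edgeR) for each tested gene, by class; filled points passed an adjusted p of 0.05, black bars are medians, and the grey band and line give the quartiles and median of all 11754 tested genes. The medians of both subunits' parents (0.25 and 0.50), of the paralogs (0.62) and of the assembly factors (0.57 and 0.54) lie above the all-gene median of -0.04, and the mitochondrial ribosomal proteins (0.08) lie near it.

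The assembly factors had the same direction with more calls. They were listed with earlier results of these data known: the paper found rRNA processing enriched among the genes upregulated in these mutants. Of 66 tested factors of the small subunit, 23 were called higher and 4 lower (median log2 fold change 0.57). Of 64 tested factors of the large subunit, 28 were called higher and none lower (median 0.54). Of all tested genes 4.37% were called higher and 4.98% lower. The 3 small-subunit factors with the smallest adjusted p were Abt1, Rcl1 and Ddx47, and Abt1, which acts in the early small-subunit precursor, had 6.31 to 95.1 CPM in controls (median 35.2) and 108 to 383 CPM in mutants (median 220) (log2 fold change 2.52, SE 0.37, edgeR adjusted p = 0.000327). The groups did not overlap for Abt1, which was the case for 0.34% of all tested genes in the higher direction. The 3 large-subunit factors were Nop2, an rRNA methyltransferase, Rexo4 and Ftsj3, and Nop2 was at 102 to 247 CPM in controls (median 137) and at 224.5 to 824 CPM in mutants (median 433), a log2 fold change of 1.67 (SE 0.23, edgeR adjusted p = 0.000266). The median change of the parents of the large subunit was thus under that of the factors that assemble it, and for the small subunit the medians were 0.50 and 0.57. Of 5 chaperones of single ribosomal proteins, 2 were called higher. These were Grwd1, the chaperone of Rpl3, with a log2 fold change of 1.33 (SE 0.23, edgeR adjusted p = 0.00102), and Aamp, the counterpart of the yeast chaperone of Rpl10, with 0.70 (SE 0.18, edgeR adjusted p = 0.0149). Their client genes were not called: Rpl3 had a log2 fold change of 0.28 and Rpl10 one of 0.06.

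Within single embryos the ribosomal protein genes spread more than the assembly factors. The median deviation of the 85 genes from their control means (log2 CPM) ran from -0.83 to 0.58 in controls and from -0.38 to 0.81 in mutants, so the groups overlapped, with 5 of 9 controls and 9 of 10 mutants above 0. For the 130 assembly factors the same measure ran from -0.17 to 0.23 in controls and from 0.29 to 0.82 in mutants, without overlap. These factors were listed with earlier results of these data known. The lowest values of the ribosomal protein genes were in control embryo 9 and mutant embryo 2. These embryos also had the highest slope of log2 CPM on log2 exon length in their groups (0.12 in control 9 and 0.07 in mutant 2), and the slope averaged 0.034 over the controls (SD 0.065, n = 9) and -0.031 over the mutants (SD 0.047, n = 10). Tested ribosomal protein genes were short, with a median exon length of 1535 bases against 3677 bases over all tested genes. After the slope was removed from each embryo, 16 genes were called higher and 2 lower (9.62% of all tested genes were called), and the median log2 fold change was 0.36. Deviations of ribosomal protein genes from their group means went together across embryos: the median Pearson correlation over all 3570 pairs of genes and 19 embryos was 0.38, where the points share library, depth and amplification.

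**Figure D2:**
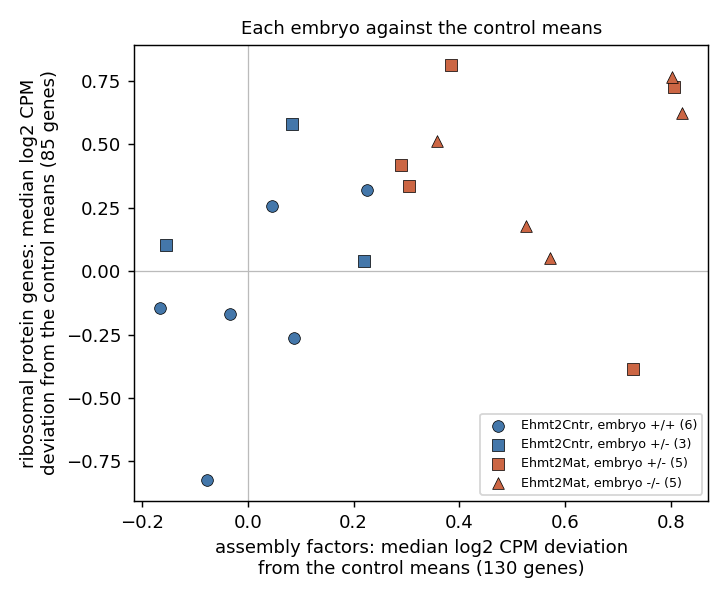
Median log2 CPM deviation from the control means in each embryo, for 130 assembly factors (horizontal axis) and 85 ribosomal protein genes (vertical axis); colour gives the maternal group and shape the embryo's own genotype. The groups do not overlap on the horizontal axis (controls up to 0.23, mutants from 0.29) and overlap on the vertical axis, where control embryo 9 (-0.83) and mutant embryo 2 (-0.38) are lowest.

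All 86 genes together received 1.84% of the reads of an average control (SD 0.41, n = 9) and 2.32% of those of an average mutant (SD 0.51, n = 10). The share ran from 1.05% to 2.32% in controls and from 1.47% to 3.14% in mutants, so the groups overlapped and 5 of 10 mutants were above the highest control. Without genes of the mitochondrial genome in the total, the shares were 2.10% and 2.68%. In bulk RNA of an embryo, more transcripts per blastomere and a smaller amount of all other RNA cannot be told apart.

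Among the small-subunit parents, Rps3 had the smallest adjusted p. Rps3, which lies at the entry of the mRNA channel, was at 559 CPM in the lowest control, 949 CPM in the median and 1374 CPM in the highest, and at 1099, 1732 and 2763 CPM in mutants. Every mutant was above the control median and 8 of 10 were above the highest control (log2 fold change 0.86, SE 0.18, edgeR adjusted p = 0.00445). Only 2.96% of the 50-base windows of its transcript also occur in another gene, so few reads could be shared. Rps24, one of the genes mutated in Diamond-Blackfan anaemia, rose from a median of 85.9 CPM (range 57.0 to 133) to 164 CPM (range 73.3 to 217), with a log2 fold change of 0.80 (SE 0.22, edgeR adjusted p = 0.0252). The groups overlapped for Rps24, although 9 of 10 mutants were above the control median. Rps28 was low, at 3.31 to 13.9 CPM in controls and 10.0 to 18.8 CPM in mutants (log2 fold change 1.33, SE 0.36, edgeR adjusted p = 0.0196), and 55.4% of its windows occur elsewhere. Rps16 had a log2 fold change of 1.01 (SE 0.29, edgeR adjusted p = 0.0287), and this call was lost without control embryo 8 and without mutant embryo 9. Rps9 and Rps21 were also called, with log2 fold changes of 0.66 and 0.90, and each lost its call when any of several embryos was left out (12 for Rps9 and 9 for Rps21).

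Among the large-subunit parents, Rpl7a changed most. Rpl7a was at 47.8 to 152.5 CPM in controls (median 85.3) and at 111 to 363 CPM in mutants (median 220.5), with 9 of 10 mutants above the highest control (log2 fold change 1.30, SE 0.23, edgeR adjusted p = 0.001145). Its transcript shares 81.2% of its 50-base windows with other genes and 8.14% of its exonic bases with 2 small genes, so part of its reads cannot be assigned to one gene. Rpl37a rose from a median of 19.7 CPM (range 13.8 to 39.5) to 47.2 CPM (range 25.3 to 59.9), with a log2 fold change of 1.02 (SE 0.24, edgeR adjusted p = 0.00793). Rpl7 rose from a median of 255 CPM (range 121 to 534) to 533 CPM (range 226 to 714), with a log2 fold change of 0.935 (SE 0.25, edgeR adjusted p = 0.0201). All mutants for Rpl37a and 9 of 10 for Rpl7 were above the control median, and the groups overlapped. Rpl24, which reaches over to the small subunit, had a log2 fold change of 1.13 (SE 0.32, edgeR adjusted p = 0.0278) at 4.69 to 15.4 CPM in controls and 12.9 to 30.6 CPM in mutants. Its exons overlap those of Gm28037 over 47.0% of their length, each read was counted for both genes, and the call was lost without mutant embryo 5 or 6. Rpl18 had a log2 fold change of 0.71 (SE 0.21, edgeR adjusted p = 0.0326), and the call was lost without any 1 of control embryos 6 and 8 and mutant embryos 3, 5 and 9. Rpl41 was the last of these calls, with a log2 fold change of 0.91, and lost it when any 1 of 14 embryos was left out.

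Rpl13 was the only ribosomal protein gene called lower. It was at 35.2, 57.4 and 113 CPM in the lowest, median and highest control and at 22.8, 39.9 and 50.0 CPM in mutants, with all 10 mutants under the control median (log2 fold change -0.84, SE 0.23, edgeR adjusted p = 0.0236). Of its 50-base windows, 80.3% occur in other genes, and the call was lost without control embryo 7.

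Per exon length, the 4 ribosomal protein genes with the highest levels in controls were Rpl8 (2040 ± 604 RPKM, SD, n = 9), Rpl4 (1794 ± 617 RPKM), Rplp1 (1558 ± 506 RPKM) and Rplp0 (1003 ± 194 RPKM). None of these 4 passed the test in mutants. Of the 36 genes with a mean of at least 100 CPM in controls, 8 were called higher, against 4.37% of all tested genes. Across the 85 tested ribosomal protein genes Spearman's rho between log2 fold change and control CPM was -0.003. Rpl4, the gene with the most counts, had 1631 to 4610 CPM in controls (median 2365) and 1748 to 4038 CPM in mutants (median 2710). Rpl8 had a log2 fold change of 0.31 (SE 0.21, edgeR adjusted p = 0.428). The stalk, through which translation factors reach the ribosome, is built from Rplp0, Rplp1 and Rplp2, and these 3 genes had different values. Rplp0 had a log2 fold change of -0.04 (SE 0.15), Rplp1 one of 0.61 (SE 0.26, edgeR adjusted p = 0.149) and Rplp2 one of 0.72 (SE 0.22, edgeR adjusted p = 0.0378). Rplp2 rose from a control median of 170 CPM (range 78.9 to 266) to 284 CPM (range 127 to 407), and its call was lost without any 1 of 11 embryos. Differences between the stalk genes were not tested.

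Rpl5, Rpl11, Rps6 and Rpsa, which also act outside the ribosome or in its regulation, were not called. Rpl5 and Rpl11, which bind 5S rRNA and, when free, the p53 regulator Mdm2, had log2 fold changes of -0.82 (SE 0.30, edgeR adjusted p = 0.0790) and -0.45 (SE 0.34, edgeR adjusted p = 0.464). For both, none of the 10 mutants was above the control median, although the spread in controls was wide (19.6 to 128 CPM for Rpl5). Rps6, the substrate of S6 kinase, was at 1.57 to 4.93 CPM in controls and 2.18 to 6.46 CPM in mutants, with a log2 fold change of 0.45 (SE 0.51). Rpsa had a log2 fold change of -0.25 (SE 0.27). The X-linked parents Rpl10, Rpl36a, Rpl39 and Rps4x had log2 fold changes of 0.06, 0.26, 1.09 and 0.59, and none was called, the smallest edgeR adjusted p being 0.0609 for Rpl39. By Y-linked counts 5 of 9 controls and 9 of 10 mutants were male, and with sex in the fit 18 ribosomal protein genes were called higher and 1 lower (9.94% of all tested genes were called).

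Of the 8 tested paralogs, 3 were called higher in Ehmt2Mat embryos (Rpl10l, Rpl36al and Rps4l), against 4.37% of all tested genes. All 3 are autosomal copies of X-linked parents, as is Rpl39l, which was not called. Rpl10l, a retrogene known for replacing Rpl10 in male meiosis, where the X chromosome is silent, was the ribosomal protein gene with the smallest adjusted p. It lies on chromosome 12 (66283379 to 66284401, minus strand, GRCm38) and was at 48.8 CPM in the lowest control, 81.5 CPM in the median and 195 CPM in the highest, and at 173, 325 and 503 CPM in mutants. Of the mutants 9 of 10 were above the highest control (log2 fold change 1.70, SE 0.24, edgeR adjusted p = 0.000266). Its parent Rpl10 on the X chromosome was at 26.2, 43.3 and 128 CPM in controls and at 10.7, 51.3 and 116 CPM in mutants, so the groups covered about the same range. Rpl36al, on chromosome 12 (69182731 to 69184083, minus strand, GRCm38), was at 20.9, 46.9 and 93.7 CPM in controls and at 69.2, 124 and 207 CPM in mutants. In 8 of 10 mutants it was above the highest control (log2 fold change 1.32, SE 0.25, edgeR adjusted p = 0.00209). Its X-linked parent Rpl36a was at 5.97, 15.3 and 44.8 CPM in controls and at 9.22, 21.3 and 37.4 CPM in mutants. Rps4l, a single-exon copy of Rps4x annotated without a coding sequence, rose from a median of 163 CPM (range 109 to 265) to 253 CPM (range 202 to 322), with a log2 fold change of 0.54 (SE 0.17, edgeR adjusted p = 0.0402). Its call was lost when any 1 of 12 embryos was left out.

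The other paralogs were not called. Rpl7l1 was at 194 to 346 CPM in controls (median 231) and at 232 to 449 CPM in mutants (median 343), and all mutants were above the control median (log2 fold change 0.43, SE 0.16, edgeR adjusted p = 0.0780). Rps27l, a p53 target, was at 73.7 to 122 CPM in controls (median 105) and at 70.5 to 349 CPM in mutants (median 151), with a log2 fold change of 0.69 (SE 0.25, edgeR adjusted p = 0.0811). Its spread in mutants was larger than in controls. Rpl39l, known from testis, and Rpl22l1 had log2 fold changes of 0.39 (SE 0.27) and 0.14 (SE 0.34). Rpl3l, which replaces Rpl3 in muscle and heart, had no count in 6 of 9 controls and in 1 of 10 mutants, and at least 10 counts in 3 controls and 9 mutants. Its highest level was 2.71 CPM in controls and 10.4 CPM in mutants, and the median was 3.03 CPM in mutants. The counts of Rpl3l were too uneven for a call (edgeR adjusted p = 0.279). Rpl6l, annotated as a processed pseudogene, had at most 5 counts in any embryo and did not pass the filter.

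**Figure D3:**
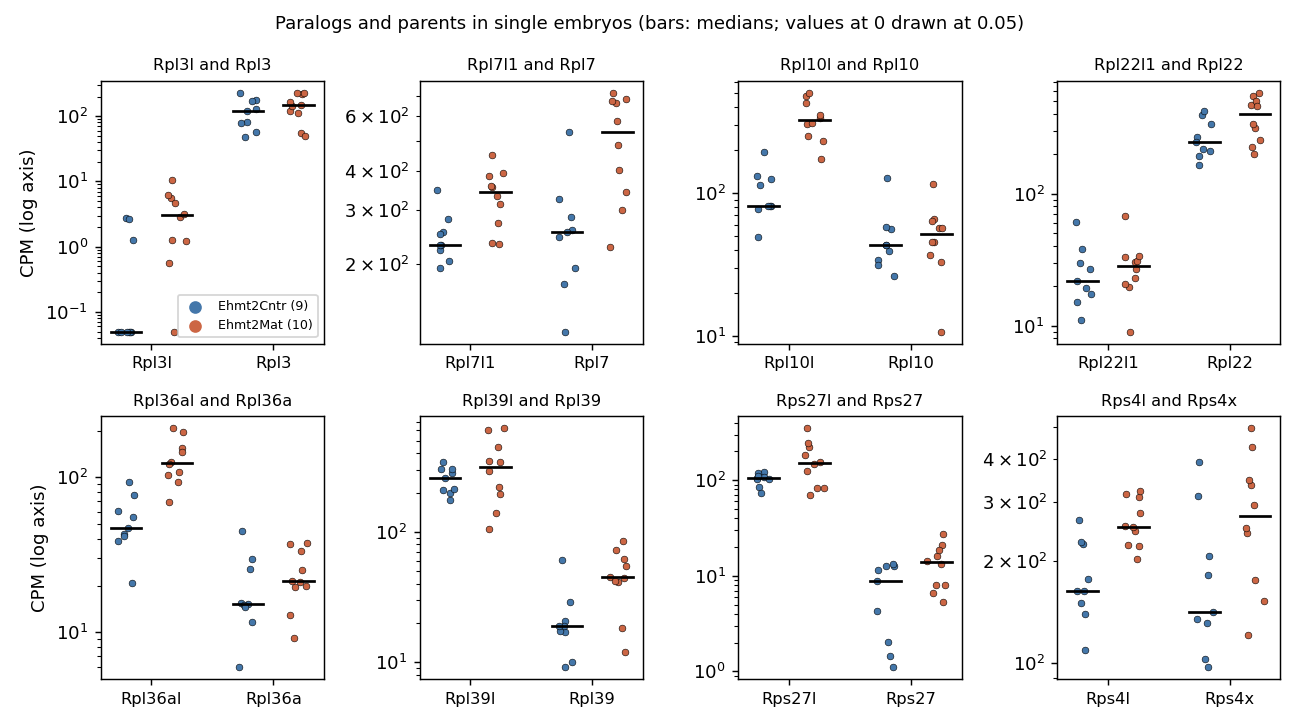
CPM (log axis) of each paralog (left) and its parent (right) in 9 Ehmt2Cntr and 10 Ehmt2Mat embryos, 1 point per embryo, with bars at the medians and values at 0 drawn at 0.05. Rpl10l (control median 81.5, mutant median 325) and Rpl36al (46.9 and 124) shift between the groups while Rpl10 (43.3 and 51.3) and Rpl36a (15.3 and 21.3) shift less.

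The ratio of paralog to parent counts in the same embryo, which does not depend on the scaling of the libraries, was compared for 8 pairs. These ratios were not adjusted for sex, although 5 of 9 controls and 9 of 10 mutants were male. The parents Rpl10, Rpl36a, Rpl39 and Rps4x are X-linked and their paralogs are autosomal, and the part of sex in their ratios was not tested. The log2 ratio of Rpl10l to Rpl10 was -0.17 to 2.32 in controls (median 0.91) and 1.87 to 4.98 in mutants (median 2.82), with 7 of 10 mutants above the highest control. The difference in means was 1.72 (95% interval 0.90 to 2.57), or 3.29-fold (exact permutation test over 92378 splits, two-sided, p = 0.000336, adjusted over 8 pairs p = 0.00268). The log2 ratio of Rpl36al to Rpl36a rose from a control median of 1.39 (range 0.51 to 2.84) to 2.60 (range 1.54 to 3.28), a difference in means of 1.01 (95% interval 0.45 to 1.56, exact permutation p = 0.0022, adjusted p = 0.00879). In CPM, Rpl10l made up 66.8% ± 12.4 (SD, n = 9) of the sum of Rpl10l and Rpl10 in controls and 86.3% ± 5.6 (SD, n = 10) in mutants, and Rpl36al made up 73.4% ± 8.0 and 84.7% ± 4.9 of its pair. Reads of both parents can be under-counted where reads with more than 1 position were dropped: 85.4% of the 50-base windows of Rpl10 and 85.5% of those of Rpl36a occur in other genes, against 7.60% and 24.9% for the paralogs. The shares between paralog and parent therefore cannot be read as shares of mRNA molecules, and only the ratios were compared between the groups.

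For Rpl39l and Rpl39 the ratio moved the other way. The log2 ratio was 1.78 to 4.81 in controls (median 3.76) and 2.01 to 3.34 in mutants (median 2.99), and all 10 mutants were under the control median. The difference in means was -0.91 (95% interval -1.55 to -0.24, exact permutation p = 0.0119, adjusted p = 0.0276). Of the parent Rpl39, controls had 9.15 to 60.7 CPM (median 18.8) and mutants 11.96 to 84.9 CPM (median 44.7). The adjusted p was between 0.0504 and 0.0523 without control embryo 1, 2, 6 or 7 or mutant embryo 4. The ratio of Rpl3l to Rpl3 was higher in mutants by 3.82 on the log2 scale (95% interval 0.96 to 6.68, exact permutation p = 0.0138, adjusted p = 0.0276), a value that rests on the 0.5 added to the counts of embryos without Rpl3l reads. With 5 added it was 2.04 (exact permutation, adjusted p = 0.0579). For Rpl7l1 and Rpl7 the difference was -0.53 (95% interval -1.19 to 0.14), for Rps27l and Rps27 -0.68 (-1.68 to 0.30), for Rpl22l1 and Rpl22 -0.34 (-1.19 to 0.50), and for Rps4l and Rps4x -0.05 (-0.60 to 0.51). These 4 intervals include 0 and also differences of more than 1.4-fold in at least 1 direction, so the pairs are not shown to move alike.

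**Figure D4:**
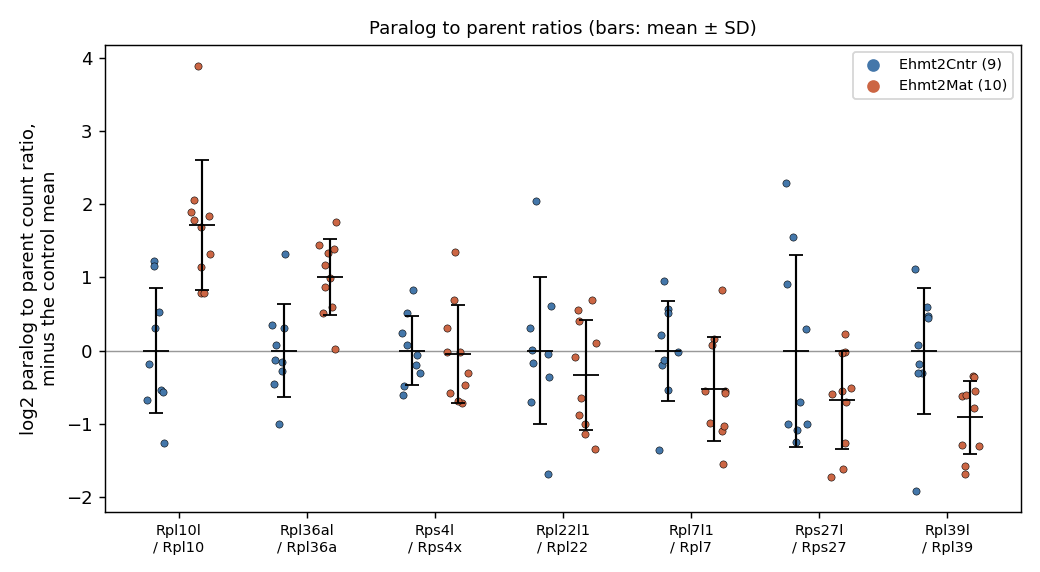
Log2 ratio of paralog to parent counts in each embryo, minus the control mean of the pair, for 7 pairs (Rpl3l, with no count in 6 controls, is left out); points are embryos and bars are mean ± SD of 9 Ehmt2Cntr and 10 Ehmt2Mat embryos. Rpl10l (difference 1.72) and Rpl36al (1.01) rise against their parents, Rpl39l falls (-0.91), and the intervals of the other 4 pairs include 0.

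The genes whose levels followed the paralogs most closely were listed by Pearson correlation of log2 CPM over the 19 embryos, in which the difference between the groups takes part. For Rpl10l they were Klhdc4 (0.91), Nop2 (0.90) and Cir1 (0.88), all 3 called higher with log2 fold changes of 1.67 to 1.70. For Rpl36al they were Mir682 (0.95), Rpl37a (0.95) and Rpl37rt (0.94), also called higher. Rps27l was closest to Uqcr10 (0.88), Rpl30 (0.87) and Cox7a2 (0.87), and Rpl39l to Cand2 (0.86), Gm10275 (0.86) and Rps20 (0.84), none of which was called. The 3 closest genes of Rpl10l and those of Rpl36al were thus different. They included Nop2, an assembly factor, for Rpl10l and Rpl37a, a ribosomal protein gene, for Rpl36al, but neither was the closest. Rpl7l1 was closest to Aqr (0.85), Mark1 (0.80) and Polr3c (0.80), Rps4l to Myg1 (0.90), Paf1 (0.85) and Sae1 (0.85), Rpl22l1 to Ptges3 (0.80), Lrif1 (0.79) and Zfp160 (0.77), and Rpl3l to Gm16028 (0.78), Smarcb1 (0.76) and Bsdc1 (0.76).

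The embryo's own genotype was compared inside each maternal group. Among Ehmt2Mat embryos, no ribosomal protein gene was called between 5 -/- and 5 +/- embryos (0.0% of all 12195 tested genes were called, edgeR), and the median log2 fold change was 0.05, with 1 gene at an unadjusted p under 0.05. DESeq2 also called no ribosomal protein gene there, and 0.099% of all genes it tested. Rpl10l was at 250 to 503 CPM in -/- and at 173 to 337 CPM in +/- mutants, and Rps3 at 1539 to 1937 CPM and 1099 to 2763 CPM. Among controls, no ribosomal protein gene was called between 3 +/- and 6 +/+ embryos with either tool (0.0% of all 12646 genes tested with edgeR and 0.733% of those tested with DESeq2 were called), with 4 genes at an unadjusted p under 0.05. The median log2 fold change there was 0.31, against -0.03 over all tested genes, and 69 of 85 values were above 0 in the direction of the 3 heterozygous controls. Of the 9 controls 6 were +/+, and none of the 10 mutants was, so this difference moves with the zygotic makeup of the maternal groups. Its part in the maternal comparison was not tested. With +/- embryos alone, 3 controls against 5 mutants, no ribosomal protein gene was called (edgeR, 0.00746% of all tested genes were called), and their median log2 fold change was 0.21. In that comparison the assembly factors of the small and large subunit had medians of 0.51 and 0.44 and also no calls. Rpl10l was at 81.4 to 114 CPM in the 3 controls and at 173 to 337 CPM in the 5 mutants. The share of all tested genes whose groups separate among so few embryos was not determined. The log2 ratio of Rpl10l to Rpl10 was higher by 2.42 (exact permutation p = 0.0179, the smallest that 3 against 5 can give, adjusted over 8 pairs p = 0.0714).

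Mitochondrial ribosomal proteins and other TOP mRNAs were set beside these genes. Of 77 tested proteins of the mitochondrial ribosome, 6 were called higher and 5 lower (7.79% and 6.49%, against 4.37% and 4.98% of all tested genes), with a median log2 fold change of 0.08. The 3 with the smallest adjusted p were Mrpl21 (-2.05, SE 0.21, edgeR adjusted p = 8e-06), Mrpl12 (0.89, SE 0.19) and Mrps24 (-1.47, SE 0.32), so they did not share a direction. Of 18 other TOP mRNAs, which encode translation factors and related proteins, 4 were called higher and 2 lower, with a median of 0.22. The called ones with the smallest adjusted p were Nap1l1 (-1.21, SE 0.24), Tpt1 (-1.28, SE 0.28) and Eif3h (0.84, SE 0.19), with edgeR adjusted p-values of 0.00241, 0.00581 and 0.00601. Among 12 regulators of TOP mRNAs, 1 was called, a share (8.33%) near that of all tested genes (9.35%). It was Eif4ebp1, an inhibitor of cap-dependent translation, at 112 to 395 CPM in controls and 28.8 to 202 CPM in mutants (log2 fold change -1.08, SE 0.29, edgeR adjusted p = 0.0216). The next 2 by adjusted p, Akt1s1 and Eif4ebp2, had log2 fold changes of -0.69 and -1.34 and missed the threshold (edgeR adjusted p = 0.0555 and 0.0616).

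C and T runs at the start of the genes were frequent among ribosomal proteins of both kinds. Runs of at least 8 letters made only of C and T on the transcribed strand, within 40 bases of the RefSeq start (GRCm38.p6), were found in 44 of 57 parents (77.2%) and 5 of 7 paralogs (71.4%) with an entry, in 23 of 69 mitochondrial ribosomal proteins (33.3%) and in 32.6% of 27025 genes. Windows of 30 bases around the longest run, in capitals, are shown for Rpl7a, the parent of the large subunit with the smallest adjusted p. They are also shown for the pairs of Rpl10l and Rpl36al, whose ratios rose. The pair of Rpl3l, whose ratio rose too, is not shown.
Rpl7a: acaaTTCCCTCTTCTTTCTTTCTCCagcag
Rpl10: gcgtcgacaccaCCCCCTggctgtaactct
Rpl10l: acagaaatttggCCTCCattttgcggctgg
Rpl36a: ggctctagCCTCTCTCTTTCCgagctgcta
Rpl36al: gctctgttcgTCCCTTTCCTgttcggcgcg
The run was 21 letters long in Rpl7a, 6 in Rpl10 and 5 in Rpl10l, and 13 in Rpl36a and 10 in Rpl36al. Relative to the annotated start, these runs began at -14 in Rpl7a, -36 in Rpl10, -10 in Rpl10l, 27 in Rpl36a and 28 in Rpl36al. Whether any of them is the first stretch of the mRNA, as in a TOP motif, was not tested. The windows lie at chr2:26910789-26910818 (plus strand) for Rpl7a, chrX:74270768-74270797 (plus) for Rpl10, chr12:66284394-66284423 (minus) for Rpl10l, chrX:134585673-134585702 (plus) for Rpl36a and chr12:69184020-69184049 (minus) for Rpl36al. Genes with and without a long run were both among the calls, since Rps3 and Rpl10l had longest runs of 6 and 5 letters.

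The measured level of a ribosomal protein gene went with how much of its transcript occurs elsewhere. Over the 85 tested genes, Spearman's rho between mean control CPM and the percent of 50-base windows found in other genes was -0.41, across genes, which are not independent. The 40 genes with more than 50% of their windows in other genes had a median level of 36.5 CPM in controls and a median log2 fold change of 0.25, with 4 called higher and 1 lower. The other 45 genes had a median level of 104 CPM and a median log2 fold change of 0.47, with 13 called higher. Over all tested genes the shares called were 4.37% higher and 4.98% lower. The lowest levels per length among the ribosomal protein genes were those of Rpl3l (0.447 RPKM), Rps6 (1.77 RPKM), Rps28 (4.28 RPKM), Rps13 (5.05 RPKM) and Rpl19 (5.16 RPKM). Apart from Rpl3l, these have 55.4% to 84.6% of their windows in other genes. Rps13 and Rpl19 had log2 fold changes of 1.28 (SE 0.49) and 0.87 (SE 0.39) and were not called (edgeR adjusted p = 0.104 and 0.180). For both, all 10 mutants were above the control median, which held for 8.32% of all tested genes. The part of shared sequence in these levels was not tested, and their order cannot be read as an order of mRNA abundance. In addition, 30 of the 86 genes share at least 10 exonic bases with another gene, and without them 11 of 55 tested genes were called higher and none lower. Among the called genes the overlapped share of exonic bases was 47.0% for Rpl24, 9.23% for Rpl18 (with Sphk2), 8.14% for Rpl7a, 6.61% for Rplp2, 6.59% for Rpl13, 6.01% for Rps28 (with Kank3) and 3.23% for Rps3, and reads were counted without strand.

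**Figure D5:**
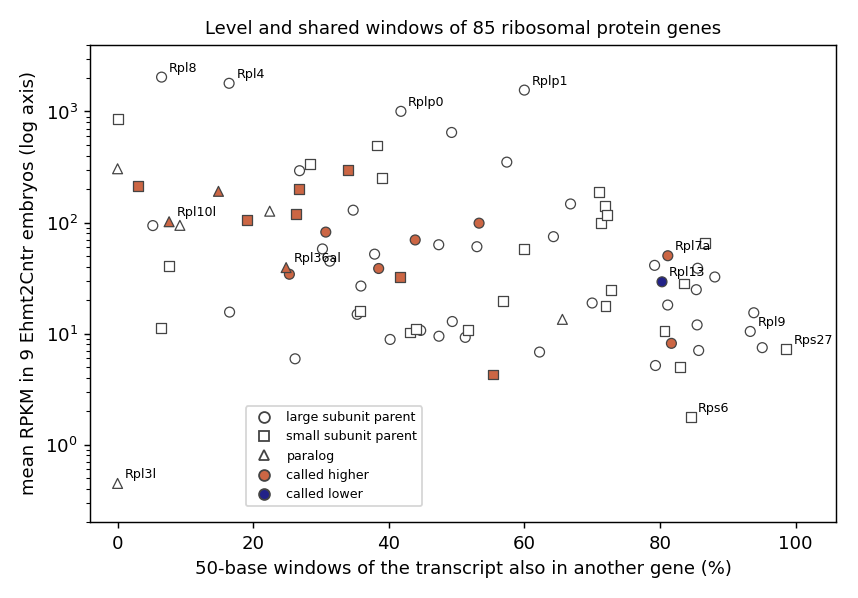
Mean RPKM in 9 Ehmt2Cntr embryos (log axis) against the percent of 50-base windows of the transcript that also occur in another gene, for 85 ribosomal protein genes; shape gives the class and fill the call in Ehmt2Mat embryos. Of the 17 genes called higher, 13 have at most 50% of their windows in other genes, and Rps27, with the most shared windows, has 98.6%.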

How the data were processed

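Single E2.5 embryos at the 8C stage were profiled after cDNA amplification, which favours the 3′ ends of transcripts, with single-end reads of 50 bases. The sequencer is HiSeq1500 in the labels and HiSeq4000 in the methods of the study. The authors deposited raw counts per gene and embryo, without normalization. Per the file headers, featureCounts 1.5.0 counted reads on exons of Ensembl release 82 (GRCm38), without strand, with an overlap of at least 10 bases, for every gene a read overlaps and with multi-mapping reads kept. The aligner of these counts is not named in the headers. The input names given there carry a tag like the option that the study gave bowtie for uniquely mapped reads. The study's methods describe Tophat2 and SeqMonk for genes and uniquely mapped reads with featureCounts for transposable elements, so it was not settled whether reads with several positions were present.

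From these counts, edgeR 4.0.16 in R 4.3.3 was run with filterByExpr, TMM scaling and quasi-likelihood tests, and p-values were adjusted by Benjamini-Hochberg over all 11754 genes kept, with a threshold of 0.05. No covariate was used. CPM use TMM-scaled library sizes, and RPKM are CPM per 1000 bases of exon. Log2 CPM used a prior count of 2. Pair ratios are log2 of counts plus 0.5, for pairs with at least 10 counts of both genes in at least 9 embryos, and were compared by the exact two-sided permutation test, whose intervals come from its inversion. Correlations, shares and list medians are descriptions. Shared windows were computed from GENCODE M21, and exonic overlaps from the exon positions given with the deposited counts. Symbols were paired with 34599 of 34937 gene IDs. Total counts of 8231646 to 30602434 per embryo set the precision, and counting error is not the only error after amplification. The edgeR and permutation scripts were tested on simulated data.

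The members and the comparison lists were chosen with earlier results of these data known. The genes named were all paralogs and their parents, up to 12 calls per direction by adjusted p, the 5 highest and 5 lowest per length, X-linked and stalk parents, Rpsa, Rps6, Rpl5 and Rpl11, the 3 of each list with the smallest adjusted p, and the 3 genes most correlated with each paralog. The alternatives were RLE and upper-quartile scaling, scaling without mitochondrial-genome and ribosomal protein genes, DESeq2 1.42.0, no filter, at least 10 counts in every embryo, a replicate block, sex, thinned counts, removal of the slope on exon length, +/- embryos alone, another pseudocount and each embryo left out. Leaving out control embryos 8 and 10 together was added after seeing the data. Some genes that this rule names are not reported here, and protein sequences were not used here.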

Additional observations from a re-analysis of the deposited data

Results flagged for a closer look

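Single embryos stood far from the rest of their group (Dixon's test at the 95% level) in 14 of the 100 groups of values examined. Chance gives about 1 in 20 for independent groups of normally distributed values. These groups share embryos and their genes go together, so an excess cannot be read from the 14. Control embryo 10 was the highest control for Rpl10 (128 CPM, next 57.95), Rpl37a (39.5 CPM, next 26.3), Rpl39 (60.7 CPM, next 29.02), Rpl7 (534 CPM, next 324), Rps13 (6.84 CPM, next 3.42) and Rps28 (13.9 CPM, next 8.68), and it had the lowest log2 ratio of Rpl39l to Rpl39 (1.78, next 3.38). Without this embryo 24 ribosomal protein genes were called (edgeR, share of all tested genes not reported here), 21 higher and 3 lower, with a median log2 fold change of 0.45. Control embryo 7 was highest for Rpl4 (4610 CPM, next 2929) and Rplp0 (2371 CPM, next 1739). Control embryo 9 was lowest for Rpl18 (58.2 CPM, next 119). Among mutants, embryo 4 was highest for Rpl10 (116 CPM, next 66.2), embryo 10 for Rpl22l1 (68.1 CPM, next 33.5) and embryo 3 for Rps3 (2763 CPM, next 1937), and embryo 3 also had the highest log2 ratio of Rpl10l to Rpl10 (4.97, next 3.14).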

How the results depend on the processing

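The number of ribosomal protein genes called was 18 and lay within 1.5 times of that under RLE or upper-quartile scaling, scaling without mitochondrial-genome and ribosomal protein genes, no filter, at least 10 counts in every embryo, sex, thinning, the length slope, and without control embryos 8 and 10 (18 higher and 3 lower). It was 30 with DESeq2 (13.6% of all tested genes were called) and 0 with +/- embryos alone (0.00746%). With the replicate block it was 10, and with the block and the length slope removed it was 9. Over the 19 fits that leave out 1 embryo it ranged from 11 to 24, with 11 without control embryo 8 and without mutant embryo 9. Apart from DESeq2, sex, the length slope and +/- embryos alone, the share of all tested genes called is not reported here for these settings. Of the 18 genes, 9 were called in all 19 of these fits and 7 also in all 12 other settings with all embryo genotypes, and none changed sign in any setting. The median log2 fold change stayed between 0.33 and 0.49 in the 19 fits and between 0.36 and 0.47 in the 12 settings. The cause of these changes was not tested. The +/- comparison has fewer embryos (3 and 5), and the median in it was 0.21.

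For small-subunit assembly factors 17 were called with the block and 0 with +/- embryos alone (21 to 29 with 1 embryo left out), for large-subunit factors 0 with +/- embryos alone (21 to 30), for mitochondrial ribosomal proteins 17 with DESeq2, 5 with the block, 5 with the block and the length slope removed and 0 with +/- embryos alone (9 to 14), and for other TOP mRNAs 0 with +/- embryos alone. No zygotic comparison called a ribosomal protein gene in any setting.

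The log2 ratio of Rpl10l to Rpl10 differed by 1.48 to 1.87 and that of Rpl36al to Rpl36a by 0.88 to 1.17 with 1 embryo left out, each with an adjusted p under 0.05 in every such fit (exact permutation). With +/- embryos alone the differences were 2.42 and 1.35, both at adjusted p = 0.0714 (exact permutation). The Rpl39l difference ranged from -1.15 to -0.77 with 1 embryo left out (-0.53 with +/- embryos alone), and the Rpl3l difference from 3.38 to 4.45 (3.02 with +/- embryos alone, 2.04 with a pseudocount of 5).

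The embryo numbers do not pair the samples: over 9 same-numbered pairs the mean correlation of deviations was 0.0125, and 0 pairs exceeded 0.1. In the replicate block, 9 of the 18 calls were lost and the ratio differences were 1.82 for Rpl10l, 1.11 for Rpl36al, -0.84 for Rpl39l (adjusted p = 0.109, exact sign flips) and 3.48 for Rpl3l (adjusted p = 0.109, exact sign flips).

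Genes at a few CPM rest on fewer counts, such as Rps6 (20 to 111 per embryo) and Rps28 (43 to 615 per embryo). The SD over controls was 36.0% of the mean for Rps6 and 53.3% for Rps28. Small differences in such genes can be missed at this depth and spread, although Rps28 was called.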
